A study of Mus musculus with 2 samples.

Results

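The chromatin of 9 chemokine genes was examined in liver by ATAC-seq: Cxcl9, Cxcl10, Cxcl14, Cxcl1, Cxcl12, Cxcl16, Ccl5, Ccl6 and Ccl9, that is, chemokines other than Ccl2. A region of open chromatin was taken as a member when the gene whose transcription start site (TSS) lies closest to it was one of these genes, at any distance. This gave 23 of the 69549 distinct regions, in 8 of the 9 genes. Ccl6 had none. ATAC-seq uses the Tn5 transposase, which inserts sequencing adaptors into accessible DNA, so that reads pile up where chromatin is open. One library came from C57BL/6 mice homozygous for a floxed Mettl3 allele (Mettl3 flox/flox), the other from Mettl3-HKO mice of genotype Mettl3 flox/flox Alb-Cre+/-. Both groups carry the floxed allele, in which loxP sites flank exons 2 and 3, were fed normal chow and were 8 weeks old. The albumin promoter drives Cre in hepatocytes, and whether the other cells of the liver keep Mettl3 was not analysed here. Each library was pooled from 4 livers, so no difference below has an error between mice, and each one compares 2 libraries.

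Chemokines are small secreted proteins that form gradients and draw leukocytes into tissue through G protein-coupled receptors. In liver they come from hepatocytes, sinusoidal endothelium, Kupffer cells, stellate cells and the leukocytes themselves, and many are silent until cytokine signals reach their promoters. CXCL9 and CXCL10 are induced by interferon and attract T and NK cells through CXCR3, CXCL1 attracts neutrophils through CXCR2, and CXCL12 holds and guides cells that bear CXCR4.

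The 250 bases upstream of the TSS are shown for 4 of the genes, from RefSeq on GRCm38.p6, 5′ to 3′ on the strand of the transcript. Capitals mark matches to letters that were searched on both strands. GAAANNGAA stands for the core of an interferon-stimulated response element, GGNNTTTCC for an NF-kappaB element and TTCNNNGAA for an element bound by STAT factors. An AP-1 element was searched as TGANTCA, and a promoter box as its usual letters, TATAAA.
Cxcl10, chr5:92348890-92349139, minus strand: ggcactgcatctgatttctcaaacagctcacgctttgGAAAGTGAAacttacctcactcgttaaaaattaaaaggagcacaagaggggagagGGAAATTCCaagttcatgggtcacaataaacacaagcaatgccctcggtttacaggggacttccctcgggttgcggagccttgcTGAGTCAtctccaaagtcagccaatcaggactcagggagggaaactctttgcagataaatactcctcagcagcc
Cxcl14, chr13:56296552-56296801, minus strand: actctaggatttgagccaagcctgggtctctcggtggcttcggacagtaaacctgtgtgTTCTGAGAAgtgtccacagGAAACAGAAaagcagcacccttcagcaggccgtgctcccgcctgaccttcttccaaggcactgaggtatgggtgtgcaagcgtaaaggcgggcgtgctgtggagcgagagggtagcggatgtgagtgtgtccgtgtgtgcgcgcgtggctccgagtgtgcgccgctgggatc
Cxcl1, chr5:90890995-90891244, plus strand: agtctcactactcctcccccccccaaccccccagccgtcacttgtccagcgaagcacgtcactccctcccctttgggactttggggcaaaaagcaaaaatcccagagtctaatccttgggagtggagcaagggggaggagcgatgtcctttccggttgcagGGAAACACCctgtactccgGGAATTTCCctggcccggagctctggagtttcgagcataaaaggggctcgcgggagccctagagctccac
Cxcl12, chr6:117168285-117168534, plus strand: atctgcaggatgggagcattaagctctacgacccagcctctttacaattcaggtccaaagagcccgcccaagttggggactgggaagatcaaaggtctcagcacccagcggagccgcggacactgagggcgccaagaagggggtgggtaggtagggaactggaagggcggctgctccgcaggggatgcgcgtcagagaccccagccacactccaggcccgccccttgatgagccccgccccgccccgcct
All 250 bases of each of the 4 windows lie inside an open region. The Cxcl10 window holds an interferon-response match beginning at -213, an NF-kappaB match on the opposite strand at -158 and an AP-1 match at -74, counted from the TSS. In Cxcl14, a STAT match begins at -191 and an interferon-response match at -172. The Cxcl14 window lies inside the RefSeq span of the gene (chr13:56288643-56296811), upstream of the start at 56296551 used here. A pair of NF-kappaB matches begins at -89 and -70 in Cxcl1. The Cxcl12 window holds no match to these letters, and 64.4% of its bases are G or C with 14 CpG pairs, against medians of 52.4% and 6 over 32851 promoters. Of those promoters, 7.13% hold the interferon-response letters, 4.93% the NF-kappaB letters, 7.02% the STAT letters, 6.75% the AP-1 letters and 12.4% those of the TATA box. In Ccl9, whose window is not shown, an AP-1 match begins at -53 and an NF-kappaB match at -35. Both lie inside its promoter region at +18, which had fewer counts in Mettl3-HKO (82 and 55). A match is a likeness in letters and was not tested for binding. Whether matches go with a rise or a fall in counts was not tested either.

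All values below are whole-liver values, in which more cells of a type and more open chromatin per cell cannot be told apart. The totals behind the libraries were 52826202 reads (Mettl3 flox/flox) and 58038305 (Mettl3-HKO), of which 31.7% and 22.3% lay in regions. Ratios are log2 of Mettl3-HKO over Mettl3 flox/flox after scaling to these totals with 1 read added. Because a smaller share of the Mettl3-HKO reads lay in regions, the typical region was lower in it, with a median of -0.38 on the log2 scale, and every ratio rises by 0.38 when it is measured from that median (the centred scale). Intervals are exact 95% intervals of counting error. They take reads as independent, and whether the counts hold PCR duplicates is not given in the sources used here. The 3 Mettl3 regions had log2 ratios of -0.24 to -0.66, and whether any of them covers the deleted exons was not analysed here.

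**Figure D1:**
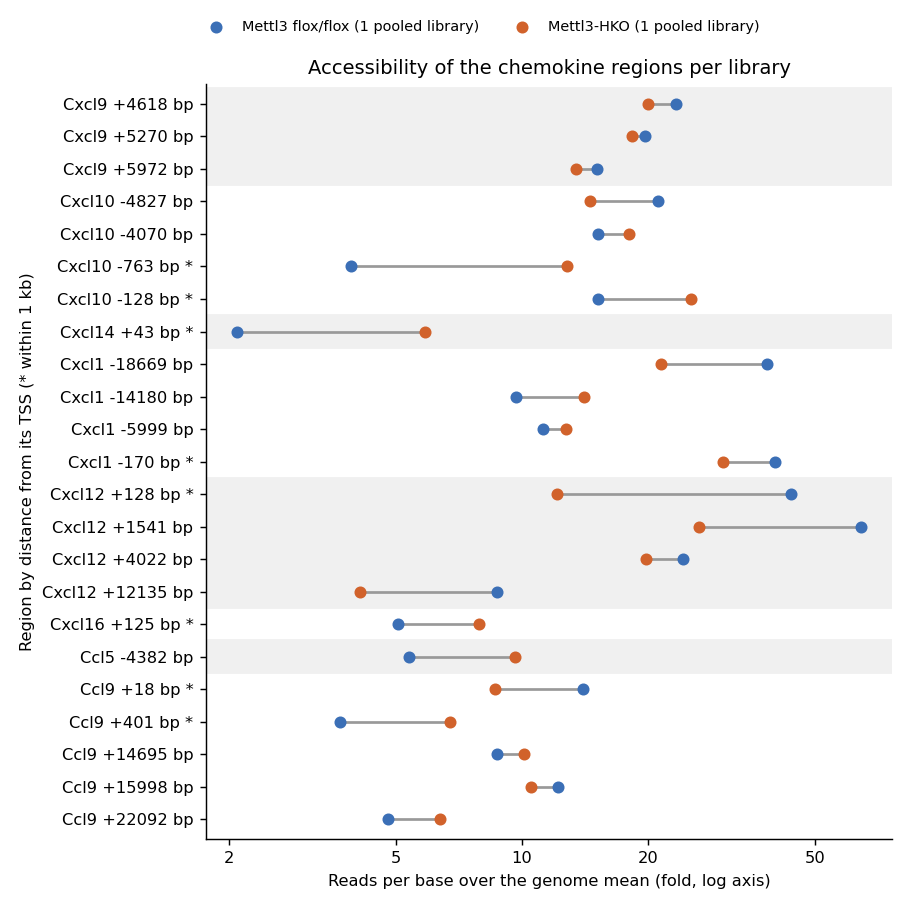
Reads per base over the genome mean, on a log axis, in each library for the 23 chemokine regions, listed by gene and by distance in bp from the TSS. The Cxcl12 promoter falls from 43.8 to 12.1, whereas the Cxcl10 region at -763 rises from 3.92 to 12.8.

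The chemokine regions moved in both directions. At least 2-fold higher in Mettl3-HKO were 2 of the 23, against 13.2% of all regions, and 3 were at least 2-fold lower, against 18.3%. Those higher were the promoter regions of Cxcl10 and Cxcl14, and those lower were 3 regions of Cxcl12. By a two-sided exact binomial test of the counts, adjusted over all regions, 5 of the 23 were higher (19.9% of all regions) and 7 were lower (47.3% of all regions). Their median log2 ratio was -0.11. On the centred scale it was 0.27, with 6 of them 2-fold higher or more (20% of all regions) and 1 lower (7.89%). A peak was called in both libraries at 17 of the 23, only in Mettl3-HKO at 6 and only in Mettl3 flox/flox at none, while over all regions these shares were 61.7%, 21.5% and 16.8%. A region called only in Mettl3-HKO entered the table through the library in which it tends to be high, and 53.3% of all such regions were at least 2-fold higher. Among the 17 chemokine regions with a peak in both libraries none was at least 2-fold higher and 3 were at least 2-fold lower, against 2.91% and 15.5% of all such regions, so both counts lay near the background. Their median log2 ratio was -0.21, against -0.47 for all such regions.

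Promoter regions, whose centre lies within 1 kb of the TSS, were found at 6 of the 9 genes, 8 in all. Here 2 of 8 were at least 2-fold higher, against 4.07% of all 14387 promoter regions, and 1 was at least 2-fold lower, against 16.3%. The exact binomial test called 4 higher (7.51% of all promoter regions) and 3 lower (71.5%). Their median log2 ratio was 0.69, and that of all promoter regions was -0.56. Both of the promoter regions that were at least 2-fold higher, at Cxcl10 and Cxcl14, were peaks only in Mettl3-HKO, a class in which 41.1% of all promoter regions were at least 2-fold higher. With a peak in both libraries, none of 5 was at least 2-fold higher, against 0.742% of all such promoter regions, and their median was -0.41, against -0.58. The 15 regions farther away had a median of -0.17, with none at least 2-fold higher and 2 lower, against 15.6% and 18.8% of all regions this far from a TSS, whose median was -0.27. Strength goes with these ratios over the whole table. Among all regions below the median of mean signal the median ratio was 0.083, and above it -0.57. The 10 weaker chemokine regions had a median of 0.47 and the 13 stronger ones -0.22. Of the 10 weaker ones, 5 were peaks only in Mettl3-HKO and none only in Mettl3 flox/flox, against 39.9% and 28.7% of all weaker regions. With a peak in both libraries, the 5 weaker chemokine regions had a median of 0.21 (all such regions -0.11) and the 12 stronger ones -0.22 (all such regions -0.57).

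**Figure D2:**
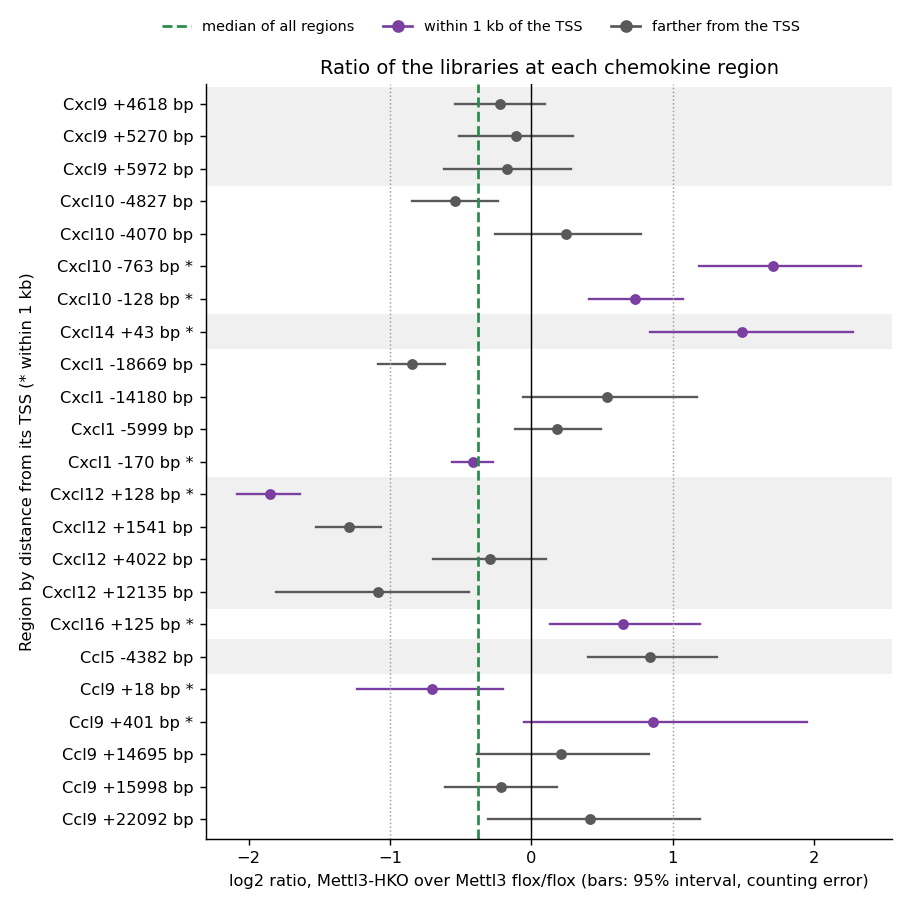
Each chemokine region's ratio (Mettl3-HKO over Mettl3 flox/flox, log2 scale), with its exact 95% interval of counting error, the 2-fold lines (dotted) and the median of all regions (dashed green, -0.38). Of the 8 promoter regions (purple), 5 lie above 0 and 3 below it; the Cxcl1 promoter lies at the median of all regions and turns positive when the libraries are scaled to the reads in regions.

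Cxcl10, the interferon-inducible ligand of CXCR3, had 4 regions, all centred upstream of its TSS (ENSMUSG00000034855, minus strand of chromosome 5). The one at -128 also covers the TSS. The region at -128 (chr5:92348792-92349199), which holds the promoter window printed above, had 119 counts in Mettl3 flox/flox and 218 in Mettl3-HKO, a log2 ratio of 0.73 (0.41 to 1.07). It was called as a peak in both libraries. Just upstream, the region at -763 (chr5:92349400-92349861) had 34 and 125 counts, which is 3.28-fold higher in Mettl3-HKO (log2 1.71, 1.19 to 2.33). Only Mettl3-HKO had a peak there, so this ratio is given as a description, beside a median of 0.81 for all promoter regions called only in that library. Farther out, the region at -4070, a peak only in Mettl3-HKO, had 58 and 76 counts (0.25, -0.26 to 0.77), and the region at -4827 (chr5:92353435-92353955), the strongest of the gene per base in Mettl3 flox/flox, fell from 212 to 160 counts (-0.54, -0.85 to -0.24), which the test no longer called on the centred scale (-0.16).

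Between the Cxcl10 regions with a peak in both libraries, the ratio of Mettl3-HKO to Mettl3 flox/flox counts was 2.42 times as high at -128 as at -4827 (1.77 to 3.33), a comparison in which the library totals cancel. The region at -763, in the table through Mettl3-HKO alone, had a ratio 4.86 times that at -4827, given as a description. Summed over the 4 regions, Cxcl10 had 423 and 579 counts, a log2 ratio of 0.32 (0.13 to 0.50). Over the regions with a peak in both libraries, at -128 and -4827, the sum was 331 and 378 counts, and the interval of its log2 ratio included 0 (0.055, -0.16 to 0.27).

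Cxcl9, the other interferon-induced CXCR3 ligand among the members, starts 20.8 kb from Cxcl10. No region lay within 1 kb of its TSS. Its 3 regions lie together in the 3′ UTR, at +4618, +5270 and +5972, and all were peaks in both libraries. They held 171 and 161, 103 and 105, and 87 and 85 counts in Mettl3 flox/flox and Mettl3-HKO, in that order, and the interval of each log2 ratio (-0.22, -0.11 and -0.17) included 0. The 3 ratios could not be told apart, since the exact interval of each pair's ratio of ratios included 1, with estimates of 1.04 to 1.08 and bounds of 0.68 to 1.59. The sum, 361 and 351 counts, gave -0.18 (-0.39 to 0.040) on the totals and 0.20 on the centred scale. The Cxcl9 promoter window, on chromosome 5 from 92328080 to 92328329, holds an interferon-response match and NF-kappaB matches at -130 and -42, although no open region covers it.

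**Figure D3:**
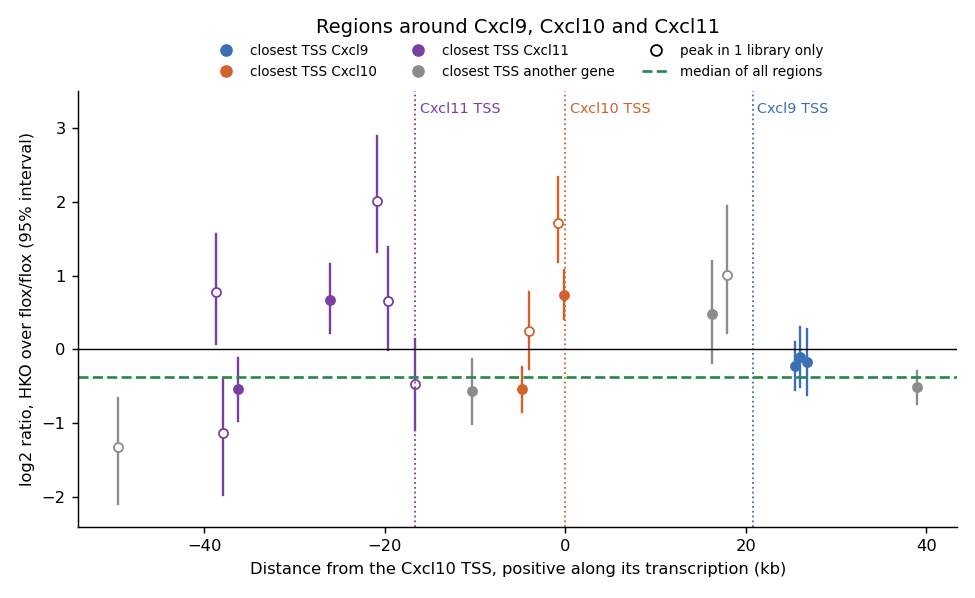
Log2 ratio, with its exact 95% interval of counting error, of each region within 50 kb of the Cxcl10 TSS against distance from it in kb, coloured by the closest TSS, with open symbols where a peak was called in 1 library only. The regions at -763 bp of Cxcl10 (1.71) and -4295 bp of Cxcl11 (2.01) are the highest, and the Cxcl9 regions lie between -0.22 and -0.11, which is positive on the centred scale.

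Regions within 50 kb of the Cxcl10 TSS also had ratios of either sign. Cxcl11, the third CXCR3 ligand, starts 16.6 kb from Cxcl10. Its promoter region at -59 had 53 and 42 counts (-0.46, -1.09 to 0.14) and a peak only in Mettl3 flox/flox, while the region at -4295 from it had 18 and 83 counts (2.01, 1.32 to 2.89) and a peak only in Mettl3-HKO. Between Cxcl9 and Cxcl10, a region at -883 from Art3, which encodes an ADP-ribosyltransferase family member, had 18 and 41 counts (1.01, 0.22 to 1.94), again with a peak only in Mettl3-HKO. Such peaks tend to be high in the library that called them. Among the Cxcl11 regions with a peak in both libraries, the one at -9484 had 63 and 111 counts (0.67, 0.22 to 1.15) and the one at -19642 had 111 and 84 (-0.53, -0.96 to -0.12).

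Cxcl14, which attracts monocytes and dendritic cell precursors, had a single region, at +43 in the 5′ UTR (chr13:56296213-56296804, ENSMUSG00000021508, minus strand). It had 23 counts in Mettl3 flox/flox and 73 in Mettl3-HKO, and only Mettl3-HKO had a peak. The ratio was 2.81-fold (log2 1.49, 0.84 to 2.27), again a description, since the region entered the table through the library in which it is high. Its level stayed low, at 2.10 times the genome mean of reads per base in Mettl3 flox/flox and 5.88 in Mettl3-HKO, the lowest estimate of the 8 promoter regions in both libraries, although the interval overlapped that of Ccl9 at +401 in both (4.55 to 7.30 and 4.35 to 9.33 in Mettl3-HKO). The exact interval of its ratio against that of the Cxcl10 region at -763 included 1 (Cxcl10 1.16 times as high, 0.60 to 2.20).

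Cxcl1, the neutrophil attractant, had the largest region of all 23. This promoter region of 1126 bp centred at -170 (chr5:90890511-90891636, ENSMUSG00000029380, plus strand) had 875 and 721 counts, a log2 ratio of -0.41 (-0.56 to -0.27) that became 0.10 when the libraries were scaled to the reads in regions. It lay near the middle of all regions, at the 48.1st percentile. Upstream, the region at -18669 fell from 383 to 234 counts (-0.84, -1.09 to -0.61). The regions between them had 38 and 61 counts at -14180 (0.53, -0.06 to 1.17), a peak only in Mettl3-HKO, and 164 and 205 at -5999 (0.18, -0.12 to 0.49). Whatever the scale, the ratio at -5999 was 2.04 times that at -18669 (1.56 to 2.68) and 1.52 times that at the promoter (1.20 to 1.92).

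Cxcl12, the CXCR4 ligand made by stromal and endothelial cells, showed the most marked loss. Its 4 regions are centred within the gene (ENSMUSG00000061353, plus strand of chromosome 6), the promoter region also reaching upstream of the TSS, and no other region lay within 50 kb of its TSS. The promoter region at +128 in the 5′ UTR (chr6:117168278-117169133) had 725 counts in Mettl3 flox/flox and 220 in Mettl3-HKO, which is 3.61-fold lower (log2 -1.85, -2.08 to -1.64, adjusted p of the exact binomial test 2.76e-72). Only 1.08% of all promoter regions had a lower ratio. In intron 1, the region at +1541 fell from 510 to 229 counts (-1.29, -1.52 to -1.06), and in the 3′ UTR the region at +12135 fell from 57 to 29 (-1.09, -1.81 to -0.44), the latter not called on the centred scale (-0.71). The region at +4022 in intron 2, called only in Mettl3-HKO, held 114 and 102 counts (-0.29, -0.70 to 0.10).

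The loss at Cxcl12 was therefore uneven. The ratio at +1541 was 1.48 times that of the promoter (1.18 to 1.85) and that at +12135 was 1.68 times it (1.01 to 2.74), all 3 being peaks in both libraries. The ratio at +4022, in the table through Mettl3-HKO alone, was 2.95 times that of the promoter, given as a description. All 4 regions together had 1406 and 580 counts, a log2 ratio of -1.41 (-1.56 to -1.27) on the totals and -1.03 on the centred scale. Without the region at +4022 the log2 ratio was -1.57 (-1.72 to -1.42). In per-base level the Cxcl12 promoter was the highest of the 8 promoter regions in Mettl3 flox/flox, 43.8 times the genome mean (40.7 to 47.1), with the Cxcl1 promoter next at 40.2 (37.6 to 42.9), and these intervals overlap. In Mettl3-HKO the order was Cxcl1 at 30.2, Cxcl10 at 25.3 for -128 and 12.8 for -763, and Cxcl12 at 12.1 (10.5 to 13.8). There the intervals of Cxcl10 at -763 and Cxcl12 overlap, as do those of Cxcl1 and Cxcl10 at -128.

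**Figure D4:**
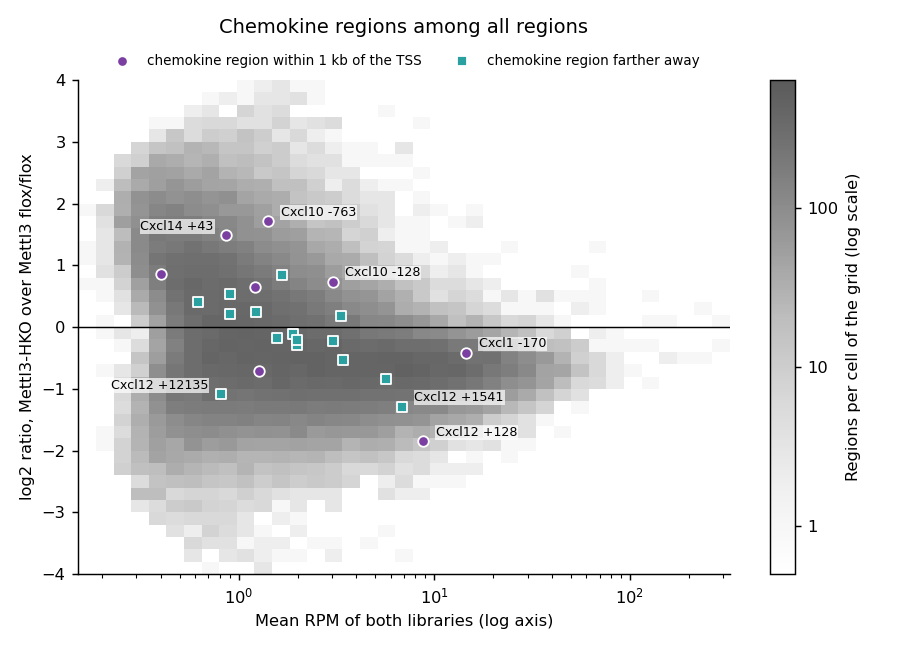
Log2 ratio against mean RPM of both libraries (log axis) for all regions, as a grey density (57 regions lie outside the plotted range), with the chemokine regions in colour. Weak regions spread widely around 0 and strong ones lie below it; the Cxcl12 promoter lies at the lower edge for its signal, and the promoter regions of Cxcl10 at -763 and of Cxcl14, both peaks only in Mettl3-HKO, lie at low signal with positive ratios.

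Cxcl16, a membrane-bound chemokine that binds CXCR6 and also takes up oxidised lipoprotein, had 1 region, at +125 in the 5′ UTR (chr11:70459604-70460114, ENSMUSG00000018920, minus strand). The counts were 49 and 85, a log2 ratio of 0.65 (0.14 to 1.20), and both libraries had a peak. The promoter regions of neighbours within 50 kb had ratios below 0 on the totals. Med11, a Mediator subunit gene, had 674 and 541 counts (-0.45), Arrb2, which encodes beta-arrestin 2, had 844 and 542 (-0.77), and Pelp1 had 167 and 178 (-0.04, -0.36 to 0.27).

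Among the CC chemokines, Ccl5, a T cell attractant, had no region at its TSS. Its single region, intergenic at -4382 (chr11:83534593-83535198, ENSMUSG00000035042, minus strand), rose from 62 to 123 counts (0.84, 0.40 to 1.32) and was a peak in both libraries. Ccl9, a rodent CCR1 ligand whose TSS lies 48.1 kb from that of Ccl5, had 5 regions. Of its promoter regions, the one at +18 in the 5′ UTR fell from 82 to 55 counts (-0.70, -1.23 to -0.20), a difference the exact binomial test no longer called on the centred scale. The one at +401 in intron 1, a peak only in Mettl3-HKO, had 14 and 29 counts (0.86, -0.05 to 1.95).

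The distal regions of Ccl9, at +14695, +15998 and +22092, lie beyond the gene's 3′ end. They had 43 and 55, 112 and 106, and 27 and 40 counts, and the interval of each log2 ratio included 0. Over its 5 regions Ccl9 had 278 and 285 counts (-0.10, -0.34 to 0.14). Ccl6, another CCR1 ligand of rodents, lies at chr11:83587886-83593087 by RefSeq, 14.5 kb from Ccl9 between start sites. No region overlapped it and none was assigned to it. The nearest one (chr11:83583240-83583742) is assigned to a gene without a symbol, ENSMUSG00000051832, and fell from 212 to 112 counts (-1.05, -1.40 to -0.72).

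Over all genes, 57 pairs of regions, within a gene or between promoter regions, were compared free of the library totals. In 26 of them both regions had a peak in both libraries. The exact interval excluded 1 for 16 of these 26. Within genes this held for the single pair of Cxcl10, 3 of 3 of Cxcl1, 2 of 3 of Cxcl12, 2 of 6 of Ccl9 and none of 3 of Cxcl9. Among promoter regions of different genes it held for 8 of 10. Against the Cxcl12 promoter, the ratio was 6.03 times as high at Cxcl10 -128 (4.57 to 7.98), 5.71 times at Cxcl16 (3.84 to 8.56), 2.71 times at Cxcl1 (2.26 to 3.27) and 2.21 times at Ccl9 +18 (1.49 to 3.26). Between Cxcl10 at -128 and Cxcl16 the estimate was 1.06, with an interval of 0.68 to 1.63 that leaves room for a difference of either sign. The intervals were not adjusted for the number of pairs. How often the interval excludes 1 for pairs drawn from all regions was not computed. Ratios go with strength over the whole table, with a median of 0.083 in all weaker regions and -0.57 in all stronger ones. Cancelling the totals does not remove this, so the counts of pairs are given as a description.

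**Figure D5:**
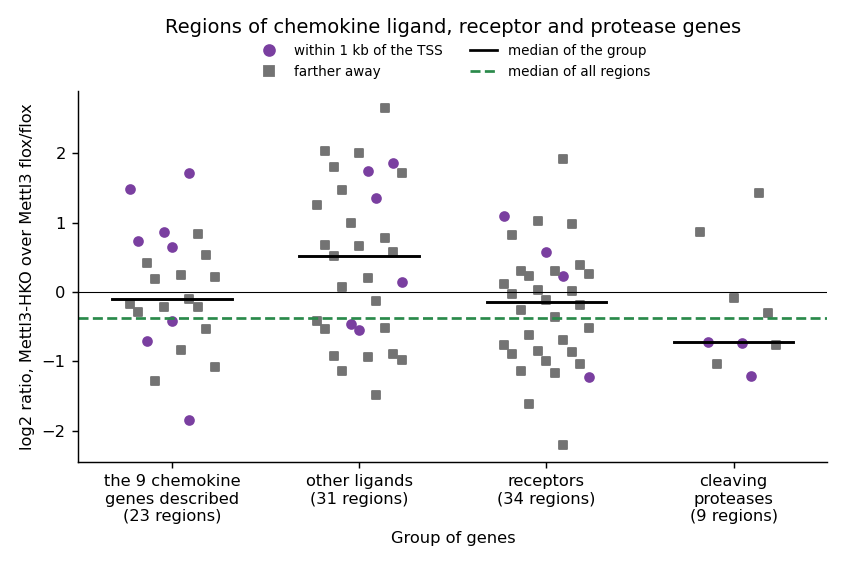
Log2 ratio of every region of the 9 chemokine genes, of other chemokine ligands, of receptors and of proteases that cleave chemokines, with group medians (black) and the median of all regions (dashed green). Other ligands have a median of 0.52 and proteases one of -0.73; the median of the 9 genes, -0.11, and that of the receptors, -0.15, turn positive on the centred scale.

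Of 55 other genes of the chemokine system, 32 had a region, 74 regions in all. Among other ligands, 10 of 31 regions rose 2-fold or more in Mettl3-HKO and 2 fell as much, and the exact binomial test called 14 higher and 8 lower, against 13.2%, 18.3%, 19.9% and 47.3% of all regions in that order. A peak only in Mettl3-HKO was called at 14 of the 31. Of the 74 regions of the 55 genes, 37 had a peak in both libraries. Of these 37, none was 2-fold higher and 5 were 2-fold lower, against 2.91% and 15.5% of all such regions. The 5 lower ones belong to Ackr2 and Dpp4, and none to a ligand gene. All 4 regions of Cx3cl1, the membrane-bound ligand of CX3CR1, were over 2-fold higher, with 10 and 43 counts at its promoter (1.86) and 12 and 89 at +16309 (2.66). The promoters of the monocyte attractants Ccl2 (14 and 41 counts, 1.35) and Ccl7 (8 and 32, 1.74) also rose, all from low counts, and these promoters and the 4 Cx3cl1 regions were peaks only in Mettl3-HKO. Pf4, the platelet chemokine gene, had 63 and 77 counts at its promoter (0.15). Ccl27a, a skin T cell attractant, had 710 and 532 at its promoter (-0.55), near the median of all promoter regions (-0.56).

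Receptors had 34 regions, of which 3 were 2-fold higher or more and 7 were 2-fold lower or more, with 6 and 13 called by the exact binomial test. These counts were not tested against the shares of all regions just given. On the centred scale the balance turned round, with 5 receptor regions 2-fold higher or more and 2 lower, against 20% and 7.89% of all regions. For the receptors of CXCL12, the promoter of Cxcr4 had 182 and 234 counts (0.23, -0.06 to 0.51), and that of Ackr3, a scavenging receptor, rose from 16 to 39 (1.10, 0.28 to 2.09) with a peak only in Mettl3-HKO. Cxcr1 had 169 and 79 counts at its promoter (-1.22) with a peak only in Mettl3 flox/flox, and Ccrl2, which binds chemerin, rose from 118 to 194 (0.58). The decoy receptor gene Ackr2 fell at all 4 of its regions, most at -7958, from 762 to 273 counts (-1.61). Dpp4, the protease that trims and inactivates CXCL10 and CXCL12 among others, fell from 963 to 457 counts at its promoter (-1.21).

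Markers of liver cell types were read in the same way, and their part in the chemokine results was not tested. All 8 endothelial markers had regions, and their summed counts were 1736 in Mettl3 flox/flox and 2399 in Mettl3-HKO (log2 0.33, centred 0.71), with 16 of 31 regions and 5 of 7 promoter regions at least 2-fold higher, against 13.2% of all regions and 4.07% of all promoter regions. Of those 31 regions, 16 were peaks only in Mettl3-HKO. Stab2, the endothelial gene with most counts, went the other way (661 and 448, -0.70). The 8 hepatocyte markers had 32647 and 23299 counts (-0.62, or -0.24 on the centred scale, where the median of all stronger regions was -0.20). Of 8 macrophage markers, 6 had a region, with 966 and 714 counts (-0.57, centred -0.19) of which Marco held 463 and 35, and Cd68 and Vsig4 had none. Without Marco the macrophage sum was 503 and 679 (0.30), with Adgre1 at -0.59. Stellate cell markers were seen for 4 of 8 genes, with 808 and 309 counts (-1.52, centred -1.14), of which Reln held most, and Lrat, Dcn, Des and Pdgfrb had no region. Without Reln it was 118 and 177 (0.45). For cholangiocytes (5 of 8 genes, -0.38), neutrophils (4 of 8, -0.39) and lymphocytes (2 of 8, -1.05) the sums were below 0 on the totals, though not for every gene (Epcam 0.057, Csf3r 0.56, Retnlg 0.86, Cd8a 0.37), and on the centred scale they were -0.0055, -0.010 and -0.67 in that order. The lymphocyte sum was mostly Cd4, with 786 and 366 counts, and Cd3e, Ly6g, S100a8 and Krt19 had no region.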

How the data were processed

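Nuclei of pooled livers were treated with Tn5 and sequenced as paired ends. Adaptors were removed by the authors with skewer and reads mapped to GRCm38 by BWA, and they kept properly paired non-mitochondrial reads with a mapping quality of at least 13; MACS2 peaks were called per library without removing duplicates. The counting of reads on merged regions and any shift for the Tn5 cut are not given in the sources used here.

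Deposited per region and library were the raw count, an RPM value and a fold enrichment, which is the ratio of the read density of a region to that of the genome. Their RPM equals the count plus 1, scaled to totals recovered here as 52826202 and 58038305 reads, to within 0.0290% given the decimals kept. Their log2 ratio is the authors' own comparison and was not used.

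Of 74821 rows, 5272 repeats of a region were left out. Starts were converted to count from 1. Members were regions whose closest gene was one of the 9 genes; all members, other chemokine genes with a promoter region or among the 5 highest and 5 lowest ratios, and neighbours within 50 kb could be named. Members and lists were chosen with earlier results of these data known.

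The counts of a region were set against the totals in an exact conditional binomial test (two-sided, Benjamini-Hochberg adjustment over 69549 regions, called under 0.05), which compares the libraries, not the genotypes. Intervals of ratios are Clopper-Pearson intervals at 95%, those of levels exact Poisson intervals, and those of 2 regions compared (chosen after seeing the data) exact conditional intervals of the odds ratio. The median region had 85 and 81 counts, and the median chemokine region 87 and 105. Promoter sequences matched for 7 of the 9 genes. Marker sums without Marco or Reln, and pairs and signal classes over regions with a peak in both libraries, were also chosen after seeing the data. Scripts were tested on simulated counts. Scaling, the added count, filters on signal and peaks, the fold threshold, the promoter window and the value per gene were varied. Analyses were run in Python 3.11.15 with scipy 1.17.1, pandas 2.3.3, numpy 2.4.6 and, for plots, matplotlib 3.10.9.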

Additional observations from a re-analysis of the deposited data

How the results depend on the processing

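With 1 library per group nothing shows the spread between mice, and counts of 14 to 875 limit the weaker regions. No paired analysis was possible because each group has 1 library. Of the 168 alternative log2 ratios of single regions, 18 changed sign, in 7 regions, all under another scale (5 when centred on all regions, 6 when scaled to reads in regions, 7 on the strongest promoters). Of the 18, 5 concerned a ratio called by the exact test under one scale or the other. Without a change of sign, 10 were no longer called and 16 newly called. Scale mattered most. Centred on the median of all regions, 6 chemokine regions rose 2-fold or more and 1 fell as much. The exact binomial test called 9 higher and 3 lower there. Of the other chemokine gene regions 21 were higher and 3 lower, and the median of the chemokine regions was 0.27. Scaled to the reads in regions these values were 7, 1, 11 and 3, with 24 other regions higher, 2 lower and a median of 0.40. Centred on the strongest 10% of promoter regions they were 8, 1, 14 and 2, with 25 higher, 1 lower and a median of 0.54. In the upper 50% of mean RPM no chemokine region was 2-fold higher, 2 were higher by the test, 0 other regions were higher and 6 lower, and the median was -0.22. With a peak in both libraries these were 0, 3, 0 and 5, with -0.21. With 10 reads added, 7 other regions were lower. At a 1.5-fold threshold 6 chemokine regions were higher and 5 lower, at 3-fold 1 and 1. Shares of all regions were not computed for these thresholds, for 10 reads added, or for the reads-in-regions and strongest-promoter scales. A change of scale moves the log2 ratio of every region by the same amount, so these counts are not a result about the chemokine genes. Cxcl1 reversed at its promoter (0.10 scaled to reads in regions, 0.23 on the strongest promoters) and in sum (0.12 and 0.25). On the strongest promoters, Cxcl10 at -4827 became 0.11 and Cxcl9 at +4618 and +5270 became 0.42 and 0.54. The regions Cxcl9 +5972, Ccl9 +15998 and Cxcl12 +4022 were above 0 under all 3 scales, at most at 0.48, 0.43 and 0.35, as were both named Cxcl9 regions. Cxcl10 gave -0.54 by its strongest region alone.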

Other observations

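The regions near these genes that are assigned to others included 25 of the 48 within 50 kb of a member's TSS. Next to Cxcl1, whose TSS lies 12.6 kb from that of Cxcl2, another neutrophil attractant, no region lay within 1 kb of the Cxcl2 start. Its regions at -4374 and -3572 had 71 and 54, and 44 and 44 counts in Mettl3 flox/flox and Mettl3-HKO. The region at +5344 had 32 and 12 counts (log2 -1.48, -2.64 to -0.55), and it and the region at -3572 were peaks only in Mettl3 flox/flox. Near Cxcl14, a region at -3549 from a gene without a symbol (ENSMUSG00000114911) had 11 and 44 counts (1.77, 0.89 to 2.97) and was a peak only in Mettl3-HKO, as the Cxcl14 promoter was.

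Ccr9, the gut-homing receptor gene, held both the lowest ratio among the other chemokine genes, at +8069 (41 and 9 counts, -2.21), and the highest among receptors, at +1355 (6 and 28 counts, 1.91). The first was a peak only in Mettl3 flox/flox and the second only in Mettl3-HKO, the library in which each is high. In Dpp4, regions also moved apart. The region at +3235 had 27 and 82 counts (1.43, 0.82 to 2.15) and was a peak only in Mettl3-HKO, while the promoter region at +701 fell from 963 to 457.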
